A study of Mus musculus with 12 samples.

Results

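Interferon-stimulated genes are the genes that a cell switches on when interferon reaches it. The 44 genes described here were chosen by symbol from general knowledge of this response, with earlier results of these data known. They are 44 of the 12960 genes of the count table, measured by RNA sequencing in bone marrow-derived macrophages (BMDMs) of WT and AMPKβ1-/- mice. BMDMs were grown from tibia and femur marrow for 7 days with L929 medium as the source of M-CSF. For the last 6 h they were kept with vehicle (0.1% DMSO) or with PF-06409577 (PF) at 10 μM, an activator of AMPK complexes that hold the β1 subunit. There were 4 groups of 3 libraries, WT with vehicle, WT with PF, AMPKβ1-/- with vehicle and AMPKβ1-/- with PF. No interferon, TLR ligand or virus was given in any group. The study set out to learn how AMPK activation alters inflammation and metabolism in macrophages. AMPKβ1 was missing from the whole animal in the knockout, so the marrow had also developed without it. The labels do not say whether the libraries of a group came from separate mice or cultures, so p values measure the spread between these libraries, which may be technical.

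Type I interferons bind the receptor IFNAR1/IFNAR2, whose kinases JAK1 and TYK2 activate transcription factors in the cytoplasm. STAT2 and IRF9 are subunits of ISGF3, which binds the interferon-stimulated response element (ISRE), whereas interferon gamma acts at the gamma-activated site (GAS). Macrophages keep a low level of many of these genes without infection through small amounts of interferon beta acting on the same receptor. The proteins sense viral RNA, degrade or edit it, trap particles at membranes or restrain the signal itself.

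The promoters show how far the genes share the sequence through which interferon acts. Promoter sequences of RefSeq (GRCm38.p6, from 250 bases before to 50 bases after the start) were matched to 35 of the 44 genes. The core of the ISRE (GAAA, then any pair of bases, then GAAA), searched on both strands, was present in the promoters of 21 genes. It was in 51.2% of their 43 promoters, in 3.44% of all 32851 promoters of the same length and in 3.31% of the 11225 promoters of tested genes. The GAS core (TTC, any 3 bases, GAA), also searched on both strands, was in 27.9% of the members' promoters and in 8.3% of all promoters. In 15 genes an ISRE core lay within the 150 bases before the start. The 6 stretches below are these 150 bases of genes that passed in a comparison of genotypes. They are read 5′ to 3′ on the gene's strand, with bases of an ISRE core on either strand in capitals. Isg15, Rsad2, Ifit3 and Irgm1 passed the test as lower in AMPKβ1-/- than in WT BMDMs with PF alone, Oas1a passed as lower with vehicle and with PF, and Gbp7 passed as higher with both. Rsad2, Ifit3 and Irgm1 did not pass without WT library 1 with PF. Rsad2 and Irgm1 also did not pass without AMPKβ1-/- library 3 with PF.
Isg15, chr4:156200819-156200968, minus strand: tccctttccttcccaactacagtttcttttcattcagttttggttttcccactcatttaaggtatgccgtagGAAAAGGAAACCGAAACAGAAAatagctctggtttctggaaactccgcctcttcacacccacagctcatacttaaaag
Rsad2, chr12:26456453-26456602, minus strand: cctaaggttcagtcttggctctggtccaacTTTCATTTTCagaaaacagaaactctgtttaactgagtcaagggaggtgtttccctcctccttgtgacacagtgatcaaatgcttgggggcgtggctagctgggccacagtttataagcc
Ifit3, chr19:34583379-34583528, plus strand: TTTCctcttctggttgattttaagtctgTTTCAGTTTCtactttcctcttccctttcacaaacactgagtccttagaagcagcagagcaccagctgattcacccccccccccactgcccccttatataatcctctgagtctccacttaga
Irgm1, chr11:48871421-48871570, minus strand: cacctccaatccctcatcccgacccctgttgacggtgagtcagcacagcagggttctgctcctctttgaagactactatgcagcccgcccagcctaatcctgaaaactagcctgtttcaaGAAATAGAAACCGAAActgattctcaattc
Oas1a, chr5:120907526-120907675, minus strand: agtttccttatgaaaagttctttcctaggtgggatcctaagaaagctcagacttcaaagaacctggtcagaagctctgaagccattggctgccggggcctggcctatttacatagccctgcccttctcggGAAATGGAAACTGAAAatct
Gbp7, chr3:142530186-142530335, plus strand: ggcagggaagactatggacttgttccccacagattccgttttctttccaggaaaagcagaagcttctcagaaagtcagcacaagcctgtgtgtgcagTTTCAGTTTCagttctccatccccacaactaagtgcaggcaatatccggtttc
Overlapping cores appear as 1 run of capitals, with 3 cores in Isg15 and a pair in Oas1a and in Irgm1. In Ifit3 the first capitals are the end of a core that begins before the printed stretch. The Gbp7 promoter holds the same kind of core as the genes that were lower, and also a pair of GAS cores. A match describes letters only, and binding was not measured.

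Between 8935609 and 14358180 counts were assigned to genes in a library, with a median of 10963566.5. Of the 12960 genes, 10822 passed the filter on low counts and were tested, all 44 members among them. Prkab1, which encodes AMPKβ1, had at least 37.3 CPM (counts scaled to the size of the library by TMM) in every WT library and at most 9.42 CPM in every AMPKβ1-/- library. The summed level of 9 macrophage markers was 25300 to 29700 CPM over all libraries, and the sums of granulocyte, lymphoid, plasmacytoid dendritic cell, fibroblast and erythroid markers were each at most 8.66 CPM in any library. All 12 listed interferon genes (Ifnb1, Ifng and others) were absent from the count table. Libraries also differed with the GC content of the genes. The slope of log2 CPM on GC content (per 10 percentage points, relative to the mean of all libraries) was 0.364 to 0.734 in WT libraries with vehicle, -0.0555 to 0.372 in WT with PF, -0.363 to -0.1 in AMPKβ1-/- with vehicle and -0.522 to -0.338 in AMPKβ1-/- with PF. This slope moved with the groups, so the counts of members that passed are also given with the GC and length trend removed from each library.

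Single libraries also stood apart for these genes. In AMPKβ1-/- library 3 with PF all 44 genes were the lowest of their group, with a median of -0.42 on the log2 CPM scale from the group mean. In WT library 3 with vehicle 40 of the 44 genes were the highest of their group, with a median deviation of 0.32, and WT library 1 with vehicle was lowest for 35 genes, with a median of -0.30. WT library 1 with PF was highest for 29 genes, with a median of 0.20. Over all 10822 tested genes the median deviation of every library lay between -0.0123 and 0.0151. Removing the GC trend left AMPKβ1-/- library 3 with PF at -0.42. In 84 other tested interferon-stimulated genes that library was lowest for 79, with a median of -0.25, and WT library 3 with vehicle was highest for 65. Results that rest on these libraries are given with and without them.

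**Figure D1:**
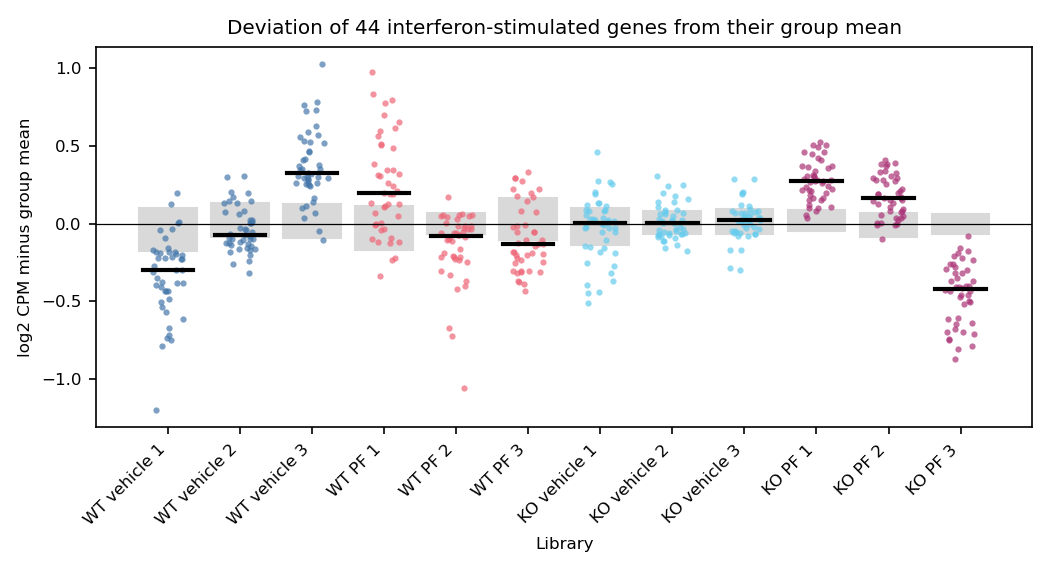
Deviation of each of the 44 genes (points) from the mean of its group on the log2 CPM scale, by library, with the median of the 44 genes as a black line and the middle 50% of all tested genes as a grey box. All 44 points of AMPKβ1-/- (KO) library 3 with PF lie below 0, and most points of WT library 3 with vehicle lie above 0.

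Compared per transcript length, levels spanned a wide range, with the membrane proteins among the highest. Ifitm3, which blocks the fusion of viruses in endosomes, had 1186 CPM per kilobase over the 12 libraries, and its neighbour Ifitm2 had 757. Oasl2, a relative of the oligoadenylate synthetases, had 432, Bst2 (tetherin, which holds budding virus at the cell surface) 288 and Samhd1, which depletes deoxynucleotides, 236 CPM per kilobase. Length was the median over the protein-coding transcripts annotated for a gene, 856.5 bases for Oasl2. The order of the genes depends on that choice of length. The lowest were Gbp5 with 2.61, Ifi44 with 1.98 and Gbp7 with 1.02 CPM per kilobase. The precision differed with level and library. The SE of a log2 fold change between groups was 0.22 in the median of the members (0.087 to 0.5 across the comparisons of PF with vehicle), against 0.13 over all tested genes.

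**Figure D2:**
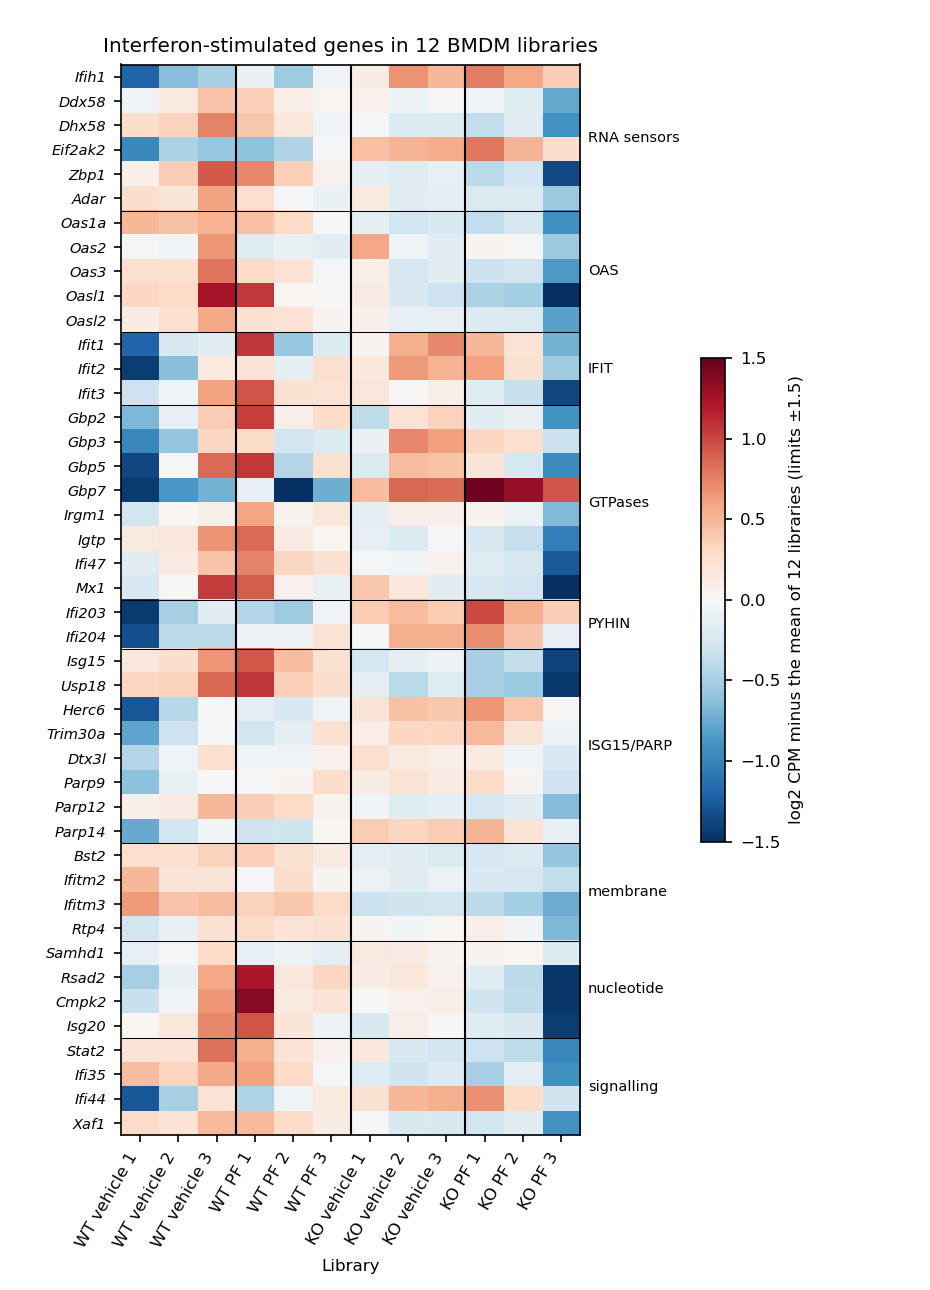
Level of each gene (rows, grouped by role) in each of the 12 libraries (columns), as log2 CPM minus the gene's mean over all libraries, with colours limited at 1.5 in either direction. Ifitm3, Bst2 and Oas1a divide by genotype, Gbp7, Eif2ak2 and Ifih1 divide the other way, and KO library 3 with PF is low for most genes.

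With vehicle, the comparison of AMPKβ1-/- with WT asks what the loss of β1 does to these genes in resting BMDMs. The members divided, with RNA sensors Ifih1 and Eif2ak2, the GTPase Gbp7 and both PYHIN genes higher in AMPKβ1-/- BMDMs, and 3 of 5 oligoadenylate synthetases, 3 of 4 membrane proteins, Usp18 and Stat2 lower. By edgeR's quasi-likelihood test with adjusted p below 0.05, 11 of 44 members were higher (25%) and 13 were lower (29.5%). Over all tested genes 29.7% were higher and 30% were lower, so the members' counts lay near the background in both directions. Without overlap between the libraries, 12 members were higher and 17 lower, against 30.9% and 32% of all tested genes. With library size alone in place of TMM, which moved the median of all genes from -0.03 to 0.18, 15 members were higher and 5 lower. The share of all tested genes that passed with this scaling is not given here, so these 2 counts have no background beside them. The median log2 fold change of the 44 was -0.10, against -0.03 for all tested genes. Past a log2 fold change of 0.8 as well, 8 were higher and 1, Ifitm3, was lower, against 16.1% and 1.76% of all genes. In such bulk RNA, fewer cells of a kind and less RNA per cell cannot be told apart.

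Among the genes that were higher, Gbp7, an interferon-inducible guanylate-binding protein, had 1.07, 1.66 and 1.89 CPM in WT with vehicle and 4.47, 5.93 and 5.83 CPM in AMPKβ1-/-. The highest WT library was below the lowest AMPKβ1-/- library. The log2 fold change was 1.80 ± 0.35 (SE), or 3.48-fold, with adjusted p = 0.000567 by edgeR. Ifih1, which encodes the RNA sensor MDA5, had 12, 17.9 and 19.8 CPM in WT and 30.1, 44.5 and 39.3 CPM in AMPKβ1-/-, a log2 fold change of 1.20 ± 0.20 with adjusted p = 0.000259. Eif2ak2, which encodes PKR, the kinase that halts translation on double-stranded RNA, had 16.1, 22.8 and 21.3 CPM in WT and 43.6, 45.4 and 46.8 CPM in AMPKβ1-/-, with 1.17 ± 0.17 and adjusted p = 9.6e-05. Neither gene's groups overlapped.

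The PYHIN genes Ifi203 and Ifi204 belong to a family of DNA-binding proteins on chromosome 1. Ifi203 had 12.3, 23.7 and 29.8 CPM in WT and 43.6, 46.4 and 43.6 CPM in AMPKβ1-/- (log2 fold change 1.02 ± 0.25, edgeR adjusted p = 0.0034). Ifi204 had 38, 72 and 71.9 CPM in WT and 94.1, 137 and 139 CPM in AMPKβ1-/- (1.02 ± 0.26, adjusted p = 0.00478). The groups of both genes were separate, and WT library 1 was the lowest. Ifit2, an RNA-binding protein that restrains viral translation, had 32.5, 56.4 and 96.6 CPM in WT and 98, 136 and 125 CPM in AMPKβ1-/-, with the highest WT library just under the lowest AMPKβ1-/- library. Its log2 fold change of 0.95 ± 0.37 had an edgeR adjusted p of 0.0496, which passed 0.05 in only 3 of the 12 fits that left out 1 library. The ubiquitin ligases Herc6 and Trim30a, Parp14, Gbp3 and Ifi44 were the other 5 members that were higher, by 0.59 to 0.84.

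Among the genes that were lower, Ifitm3 had 1194, 1032 and 1056 CPM in WT with vehicle and 613, 623 and 630 CPM in AMPKβ1-/-. All AMPKβ1-/- libraries lay far below all WT libraries. The level in AMPKβ1-/- was 0.569 of that in WT, a log2 fold change of -0.81 ± 0.09 with adjusted p = 1.77e-05 by edgeR. Oas1a, which makes the oligoadenylates that activate RNase L, had 396, 382 and 404 CPM in WT and 256, 229 and 240 CPM in AMPKβ1-/-, with -0.70 ± 0.14 and adjusted p = 0.001. Its relative Oas3 had 486, 487 and 714 CPM in WT and 439, 346 and 364 CPM in AMPKβ1-/-, with -0.55 ± 0.17 and adjusted p = 0.0138. WT library 3 was high for Oas3, and without it the edgeR adjusted p was 0.0837. Without AMPKβ1-/- library 2 with vehicle it was 0.0598.

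Usp18, the protease that removes ISG15 and shuts off IFNAR2 signalling, had 120, 121 and 173 CPM in WT and 87.2, 72.3 and 83.1 CPM in AMPKβ1-/-, a log2 fold change of -0.77 ± 0.26 with an edgeR adjusted p of 0.0233. Without WT library 3 it was -0.58 with adjusted p = 0.0939. Without AMPKβ1-/- library 1, 2 or 3 with vehicle the edgeR adjusted p was 0.054, 0.087 and 0.058. Ifi35 had 128, 116 and 137 CPM in WT and 80.9, 75.4 and 80.4 CPM in AMPKβ1-/-, with -0.69 ± 0.17 and adjusted p = 0.00398. Dhx58, which encodes the RNA sensor LGP2, had 193, 203 and 270 CPM in WT and 159, 139 and 140 CPM in AMPKβ1-/-, with -0.60 ± 0.17 and adjusted p = 0.00955, and 0.0554 without WT library 3. These 3 genes kept separate groups. The other members that were lower were Bst2, Ifitm2, Adar, Oasl2, Parp12, Stat2 and Xaf1, by -0.54 to -0.37.

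Of the 13 genes that were lower with vehicle, 5 passed in all 12 fits without 1 library (Oas1a, Bst2, Ifitm2, Ifitm3 and Ifi35), and in the fit without WT library 3 with vehicle the lower calls numbered 5. That library was high for 40 of the 44 genes, and without it the median of the members was 0.18 in place of -0.10. Of the 11 that were higher, 7 passed in all 12 fits. Without WT library 3, 13 members were higher. The share of all tested genes that passed in the fit without that library is not given here, so the counts of 5 and 13 have no background beside them.

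The direction followed GC content. Across the 44 genes the Spearman correlation of the log2 fold change with GC content was -0.85, and across 10790 tested genes it was -0.74, given as a description since genes are not independent. Of the 30 members with GC content below the median of tested genes (50.9%), 11 were higher and 3 were lower in AMPKβ1-/- with vehicle. Of the 14 above that median, 0 were higher and 10 were lower. With the GC and length trend removed, 2 members were higher (Eif2ak2, 0.40, adjusted p = 0.0123, and Gbp7, 1.12, adjusted p = 0.021) and 4 were lower, against 25.7% and 11.5% of all tested genes by the same edgeR test. The 4 were Ifitm3 (-0.54, adjusted p = 5.18e-05), Oas1a (-0.40, 0.0305), Xaf1 (-0.50, 0.047) and Trim30a, which turned from 0.59 to -0.49 (0.0103). Ifi203, at 38.9% GC the lowest of the members, turned from 1.02 to -0.20 with adjusted p = 0.454, and Ifih1 went from 1.20 to 0.37 with adjusted p = 0.0848. Whether the trend arose in the cells or in the libraries was not tested.

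**Figure D3:**
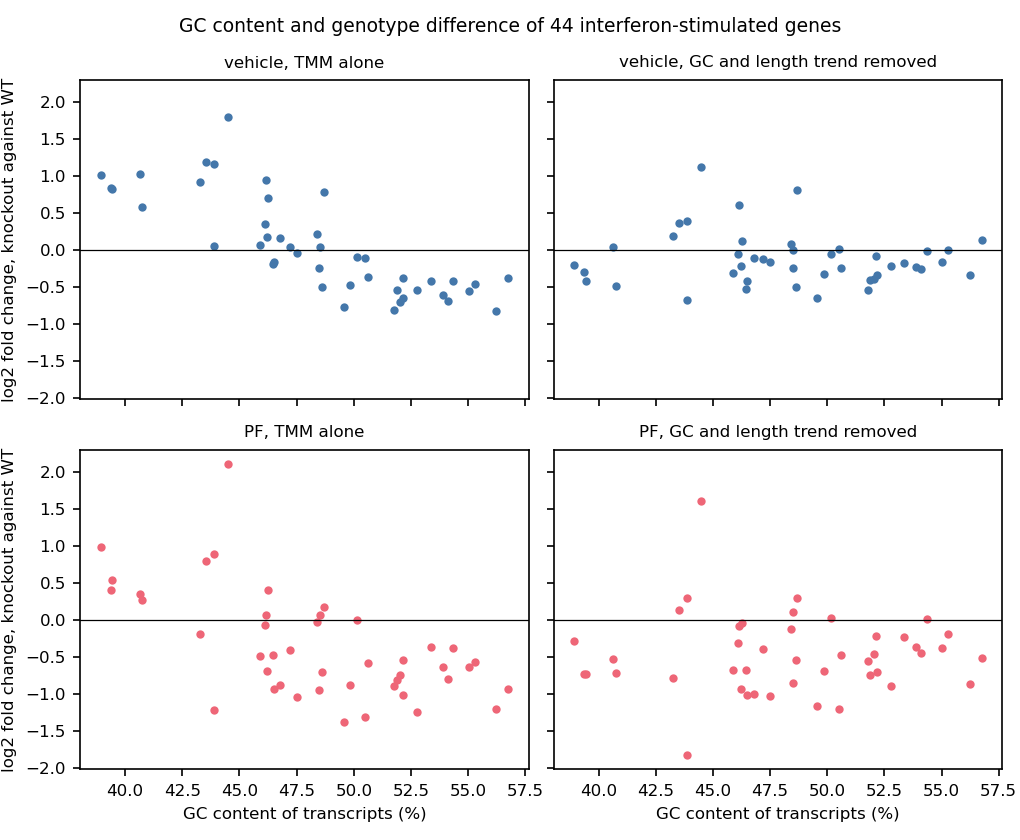
Log2 fold change of AMPKβ1-/- against WT (vertical) against the GC content of the gene's transcripts (horizontal, %) for the 44 genes, with vehicle (top) and PF (bottom), before (left) and after (right) the GC and length trend of each library was removed. The downward slope on the left (Spearman correlation -0.85 with vehicle) is absent on the right (-0.08), while most genes stay below 0 with PF.

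The comparison of AMPKβ1-/- with WT in PF-treated BMDMs gave a larger share of lower genes. Isg15, Usp18, Rsad2, Cmpk2, Oasl1 and Ifit3, which belong to the core of the type I interferon response, were below -1 on the log2 scale, and Gbp7, Ifi203, Eif2ak2 and Ifih1 were again higher. By edgeR, 25 of 44 members were lower (56.8%) and 4 were higher (9.09%), whereas 22.9% of all tested genes were lower and 24.1% were higher. The median log2 fold change of the members was -0.56, against 0.00 for all tested genes (-0.00124). Past a log2 fold change of 0.8 as well, 13 were lower and 3 higher, against 2.06% and 12.2% of all genes. In 27 members every AMPKβ1-/- library was below every WT library, against 30% of all tested genes, and in 5 members the opposite held, against 29.9%. With library size alone, which moved the median of all genes to 0.15, 20 were lower and 6 higher, again without the share of all tested genes.

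Isg15, the ubiquitin-like protein that is attached to other proteins after interferon, had 198, 144 and 122 CPM in WT with PF and 74.1, 80.9 and 39.4 CPM in AMPKβ1-/- with PF. The groups were separate, with WT library 1 the highest and AMPKβ1-/- library 3 the lowest. The level in AMPKβ1-/- was 0.42 of that in WT, a log2 fold change of -1.25 ± 0.24 with adjusted p = 0.00135 by edgeR. Usp18, its protease, had 200, 122 and 114 CPM in WT and 68, 65 and 35 CPM in AMPKβ1-/-, with -1.38 ± 0.27 and adjusted p = 0.00149. Both genes passed in all 12 fits that left out 1 library.

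Rsad2 encodes viperin, which makes a chain-terminating nucleotide, and Cmpk2 is the kinase beside it that supplies its substrate. The pair lies head to head in 37.1 kb of chromosome 12 (GRCm38 positions 26442746 to 26479837). Rsad2 had 187, 90.2 and 99.5 CPM in WT with PF and 71.3, 61.1 and 29.1 CPM in AMPKβ1-/- with PF (log2 fold change -1.22 ± 0.39, edgeR adjusted p = 0.0263). Cmpk2 had 255, 110 and 113 CPM in WT and 80.2, 76.2 and 35.9 CPM in AMPKβ1-/- (-1.31 ± 0.40, adjusted p = 0.0233). The groups of both genes were separate, with WT library 1 far above its group and AMPKβ1-/- library 3 below its own. Without WT library 1 the edgeR adjusted p was 0.117 for Rsad2 and 0.103 for Cmpk2, and without AMPKβ1-/- library 3 it was 0.0543 and 0.0597.

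Oasl1, which restrains the translation of Irf7, had 95.8, 46.9 and 45.5 CPM in WT with PF and 32.9, 32.3 and 15.7 CPM in AMPKβ1-/- with PF (-1.21 ± 0.40, edgeR adjusted p = 0.0296). Ifit3 had 473, 287 and 285 CPM in WT and 218, 195 and 95.2 CPM in AMPKβ1-/- (-1.04 ± 0.34, adjusted p = 0.0279). The groups did not overlap for either gene, and neither passed without WT library 1 with PF (adjusted p = 0.114 and 0.117) or once the GC and length trend was removed (0.1 and 0.0511). Oasl1 also lost its call without AMPKβ1-/- library 3 with PF. Ifit3 shares sequence with Ifit3b, so reads could have been split between the copies, and the same holds for Ifitm2 with Ifitm3, the Oas1 copies, the Gbp genes, Ifi203 with Ifi204 and Trim30a with Trim30d.

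Of the 25 lower genes, 15 passed in all 12 fits that left out 1 library, and 9 of these also passed with the GC and length trend removed (Oas1a, Ifi47, Isg15, Usp18, Parp12, Ifitm3, Stat2, Ifi35 and Xaf1). With that trend removed, 16 members were lower and 2 higher (Gbp7 and Eif2ak2), against 13.2% and 27.1% of all tested genes, and the median of the members was -0.52. Of these 16 lower genes, 13 were among the 25, and the other 3 turned from above 0 to lower, Herc6 from 0.53 to -0.73, Trim30a from 0.27 to -0.72 and Ifi44 from 0.40 to -0.73. Without WT library 1 with PF, 15 were lower, against 16.8% of all genes, and without AMPKβ1-/- library 3 with PF, 17 were lower, against 16.5%. The share of lower members thus stayed above that of all genes in each of these fits. Ifitm3, with 977, 1013 and 938 CPM in WT and 582, 537 and 458 CPM in AMPKβ1-/-, had the smallest adjusted p of the members (-0.89 ± 0.09, 3.37e-06).

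The 4 higher genes were also higher with vehicle. Gbp7 had 2.92, 0.655 and 1.85 CPM in WT with PF and 9.06, 8.24 and 6.32 CPM in AMPKβ1-/- with PF, 4.3-fold higher (2.10 ± 0.32 on the log2 scale, edgeR adjusted p = 0.000131), in groups that did not overlap. Eif2ak2 (0.88 ± 0.16), Ifi203 (0.98 ± 0.24) and Ifih1 (0.80 ± 0.19) had adjusted p of 0.000583, 0.00513 and 0.0037. With the GC trend removed, Ifi203 turned to -0.29 with adjusted p = 0.239, and Ifih1 was 0.14 with adjusted p = 0.483.

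**Figure D4:**
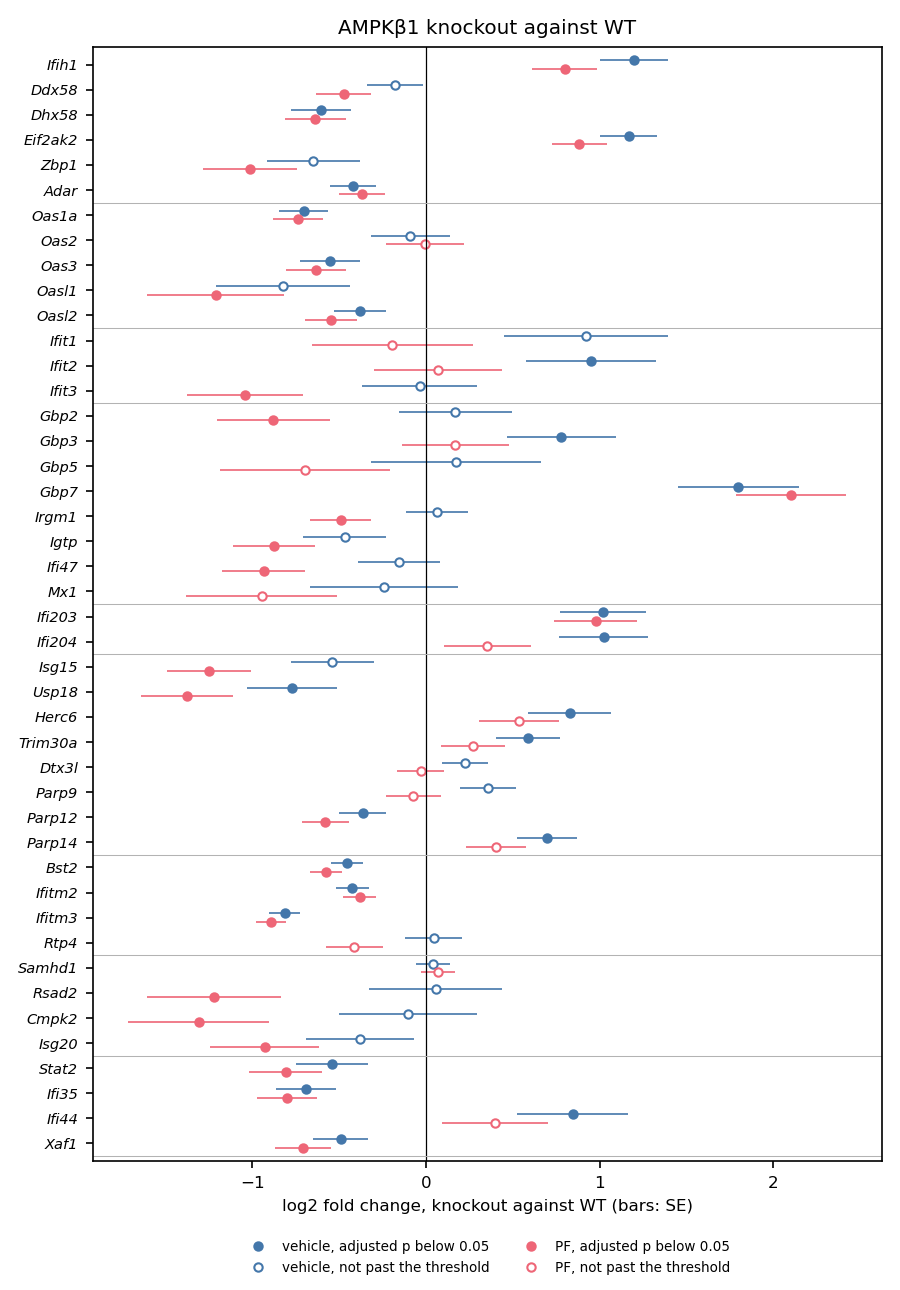
Log2 fold change of AMPKβ1-/- against WT with its SE for each of the 44 genes with vehicle (blue) and with PF (red), filled where the adjusted p was below 0.05. Gbp7, Eif2ak2, Ifih1 and Ifi203 lie to the right in both comparisons, and Rsad2, Cmpk2, Ifit3 and Gbp2 lie near 0 with vehicle and left of 0 with PF. The calls of Rsad2, Cmpk2, Ifit3 and Gbp2 were lost without WT library 1 with PF.

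By role, the oligoadenylate synthetases and membrane proteins gave lower genes in both comparisons. Of the 5 oligoadenylate synthetase genes, 3 were lower with vehicle and 4 with PF, and of the 4 membrane proteins, 3 were lower with each, against 30% of all tested genes with vehicle and 22.9% with PF. With the GC and length trend removed, 1 oligoadenylate synthetase gene (Oas1a) and 1 membrane protein gene (Ifitm3) passed as lower in either comparison. The share of all tested genes that was lower was then 11.5% with vehicle and 13.2% with PF. Both PYHIN genes were above 0 in both comparisons, and with that trend removed both were below 0 with PF and 1 of them with vehicle. Of the 4 nucleotide and nuclease genes, 0 passed with vehicle and 3 were lower with PF (Rsad2, Cmpk2 and the exonuclease Isg20, -0.93 ± 0.32). None of these 3 passed without WT library 1 or without AMPKβ1-/- library 3 with PF, and Isg20 was -0.52 with adjusted p = 0.231 with the trend removed, where Rsad2 and Cmpk2 passed. Of the 8 GTPases, some of which coat and disrupt the vacuoles of intracellular microbes, 2 were higher with vehicle (Gbp3 and Gbp7). With PF, 4 were lower (Gbp2, Irgm1, Igtp and Ifi47) beside Gbp7, which was higher. Igtp and Ifi47 passed in all 12 fits that left out 1 library, and Gbp2 in 4 of them. Irgm1 lost its call without WT library 1 and without AMPKβ1-/- library 3 with PF. With the trend removed, 1 GTPase (Gbp7) was higher with either, and 2 (Irgm1 and Ifi47) were lower with PF. Of the 6 RNA sensors and editors, 2 were higher (Ifih1 and Eif2ak2) and 4 lower with PF, among the latter Zbp1 (-1.01 ± 0.27) and the sensor RIG-I gene Ddx58 (-0.48 ± 0.16). With the trend removed, 1 was higher (Eif2ak2) and 1 lower (Ddx58), and Zbp1 had adjusted p = 0.0955. Ddx58 lost its call without WT library 1 and without AMPKβ1-/- library 3 with PF.

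The calls of both comparisons shared 13 lower and 4 higher genes, and 0 genes were called in opposite directions. A further 12 genes passed as lower only with PF (Ddx58, Zbp1, Oasl1, Ifit3, Gbp2, Irgm1, Igtp, Ifi47, Isg15, Rsad2, Cmpk2 and Isg20), with a median of -0.17 with vehicle and -0.97 with PF. The smallest adjusted p for a difference between these genotype effects was 0.324 by edgeR, so they were not shown to differ with treatment. Of the 12, 4 still passed with PF without WT library 1 and 5 without AMPKβ1-/- library 3. The 7 genes that passed as higher only with vehicle were Ifit2, Gbp3, Ifi204, Herc6, Trim30a, Parp14 and Ifi44. None of them passed as higher with the GC and length trend removed, and Herc6, Trim30a and Ifi44 were then below 0. Ifit2 passed in 3 and Gbp3 in 7 of the 12 fits that left out 1 library.

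The oligoadenylate synthetase genes lie on the chromosome that carries the targeted gene. Oas1a, Oas2 and Oas3 lie 4.71 to 4.87 Mb beyond Prkab1 on chromosome 5 (GRCm38 120730333 to 120907521), and Oasl1 and Oasl2 lie 1.1 and 1.13 Mb before it. Of the 74 tested genes within 5 Mb of Prkab1, 52.7% were lower in AMPKβ1-/- with vehicle, against 30% of all tested genes, and 37.8% were lower with PF, against 22.9%. Counted in either direction, 58.1% of the 74 passed with vehicle, against 59.7% of all tested genes, and 40.5% with PF, against 47.1%. The GC trend was not removed for these shares. The part of this region in the values of the 5 genes was not tested. The other lower members lay on other chromosomes, such as Ifitm3 on chromosome 7 and Isg15 on chromosome 4.

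PF against vehicle in WT BMDMs asks whether activating AMPK moved the genes within 6 h. By edgeR, 0 of 44 members were higher and 0 were lower, whereas 6.99% of all tested genes were higher and 8.95% were lower. At an unadjusted p below 0.05, 2 members were higher and 2 were lower, against 17.2% and 18.1% of all tested genes. limma-voom also called 0 in either direction, and DESeq2 called 1, Ifih1 (0.55, adjusted p = 0.0315). The log2 fold changes ran from -0.39 to 0.74, with 27 above 0 (50.7% of all tested genes), 17 below 0 (49.3% of all) and a median of 0.12. In 1 member every PF library was above every vehicle library, against 14.2% of all tested genes, and in 3 (Oas1a, Oas2 and Ifitm3) every PF library was below, against 18.1%. Without WT library 1 with PF the median was -0.08, and without WT library 3 with vehicle it was 0.34, so its sign depended on single libraries.

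Ifih1 had 12, 17.9 and 19.8 CPM with vehicle and 25.9, 19.2 and 26.8 CPM with PF, in groups that overlapped, with a log2 fold change of 0.53 ± 0.20 and an edgeR adjusted p of 0.0797. Ifi204 went from 38, 72 and 71.9 CPM to 90, 89 and 110 CPM, with every PF library above every vehicle library, and had 0.67 ± 0.26 and adjusted p = 0.0905. Adar, which edits adenosine to inosine in double-stranded RNA, had 335, 317 and 427 CPM with vehicle and 333, 276 and 260 CPM with PF (-0.31 ± 0.13, adjusted p = 0.112). Its groups overlapped, and without WT library 1 with PF it was -0.42 with adjusted p = 0.0349. Ifitm2 had 693, 564 and 561 CPM with vehicle and 481, 589 and 503 CPM with PF, also overlapping (-0.21 ± 0.09, adjusted p = 0.127).

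With the GC and length trend removed, 0 members passed and the median was 0.00 (-0.000745). Before that, the 30 members with lower GC content had a median of 0.29 and the 14 with higher GC content had -0.16 in WT, and afterwards 0.04 and -0.05. All 3 Ifit genes were above 0 and all 5 oligoadenylate synthetase genes were below 0, under every scaling and with the GC trend removed, and no member of either family passed. Their medians were 0.61 and -0.25, and 0.39 and -0.12 with that trend removed. The Ifit genes were highest in WT library 1 with PF for Ifit1 (99.9 CPM against 31.8 and 41.1) and Ifit3 (473 against 287 and 285).

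PF against vehicle in AMPKβ1-/- BMDMs asks what the compound did where its β1 target was absent. By edgeR, 0 of 44 members passed in either direction, against 0.0554% of all tested genes higher and 0% lower, and DESeq2 and limma-voom also called 0. At an unadjusted p below 0.05, 2 were lower and 0 higher, against 0.693% and 4.29% of all tested genes. Most members pointed one way, with 39 of 44 below 0 (51.3% of all tested genes) and 5 above 0 (48.7% of all), and a median of -0.27, against -0.004 for all tested genes. In 17 members (38.6%) every PF library was below every vehicle library, against 6.28% of all tested genes. The opposite held for 1 member, Gbp7, against 8.21%.

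The 17 genes included Isg15, Usp18, Rsad2, Cmpk2, Ifit3, Mx1, Oas3, Oasl1, Oasl2, Stat2, Zbp1 and Ifitm3. Ifitm3 had 613, 623 and 630 CPM with vehicle and 582, 537 and 458 CPM with PF (log2 fold change -0.24 ± 0.09, edgeR adjusted p = 0.715). Oasl2 had 379, 330 and 331 CPM with vehicle and 314, 310 and 206 CPM with PF (-0.33 ± 0.15, adjusted p = 0.982). Isg15 had 86.4, 94.6 and 98.4 CPM with vehicle and 74.1, 80.9 and 39.4 CPM with PF (-0.52 ± 0.24), and Oas3 had 439, 346 and 364 CPM with vehicle and 328, 339 and 227 CPM with PF (-0.36 ± 0.17), both with adjusted p = 0.982. In each of these 4 genes AMPKβ1-/- library 3 with PF was the lowest and the other PF libraries also lay below the vehicle libraries.

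Without that library, the median of the members was -0.12, 11 of 44 were above 0, and 17 members still had every PF library below every vehicle library, against 10.1% of all tested genes. With each AMPKβ1-/- library left out in turn this count was 17 to 23 (38.6% to 52.3% of the members). The share of all tested genes was then 9.75% to 13.8%, above the 6.28% with all libraries. This check was chosen after the data were seen. With the GC and length trend removed from all libraries, the median was -0.28 and 1 of 44 members was above 0.

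**Figure D5:**
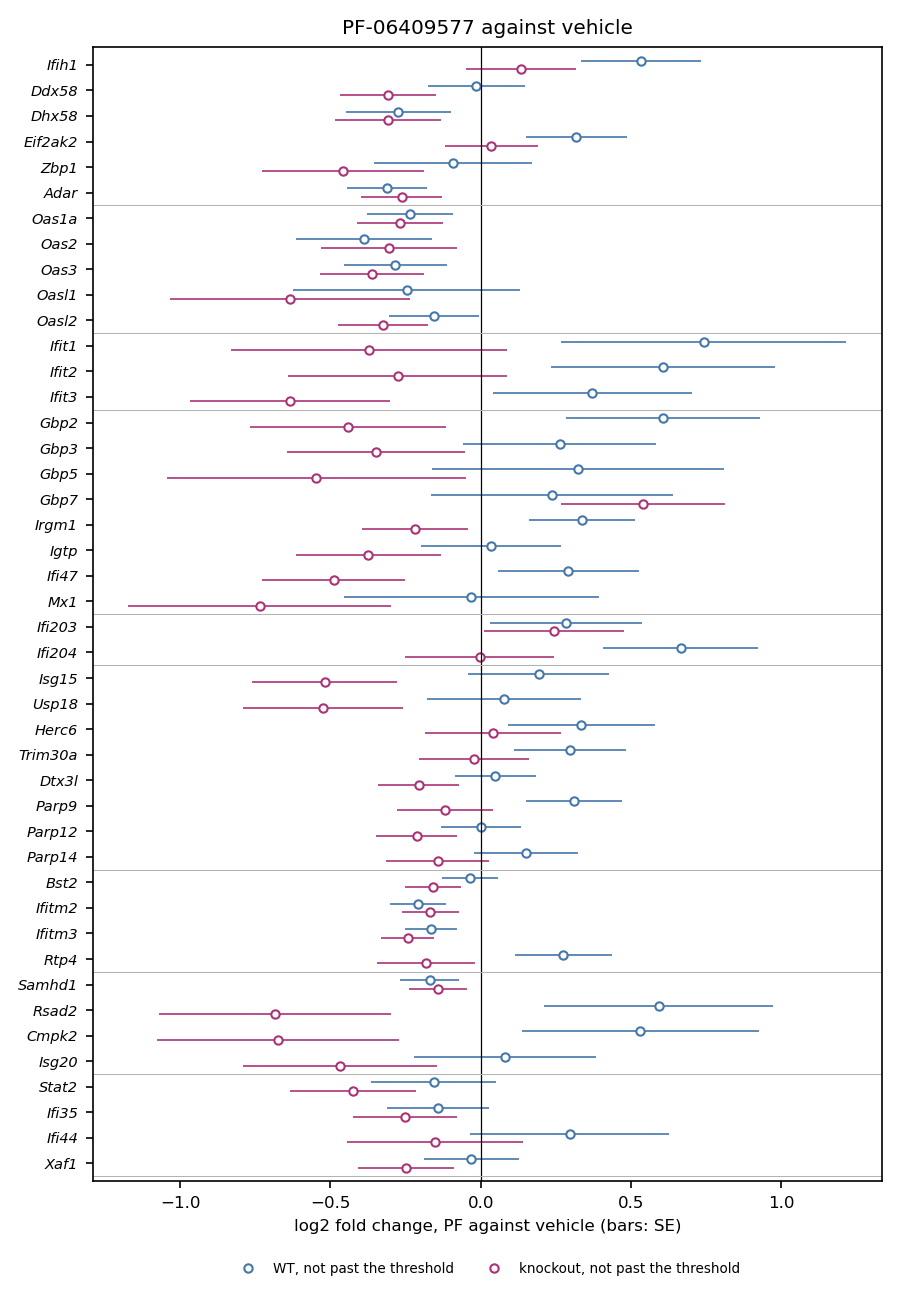
Log2 fold change of PF against vehicle with its SE for each of the 44 genes in WT (blue) and AMPKβ1-/- (purple) BMDMs, all open because no adjusted p was below 0.05. In AMPKβ1-/- BMDMs 39 genes lie below 0, and in WT 27 genes lie above 0.

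The difference between these responses, WT minus AMPKβ1-/-, tests whether β1 changed the effect of PF. By edgeR 0 of 44 members passed in either direction, against 0.176% of all tested genes above 0 and 0.24% below 0, and DESeq2 and limma-voom called 0. At an unadjusted p below 0.05, 4 members were above 0 and 0 below, against 6.35% and 7.97% of all tested genes. The difference was above 0 in 39 members (49.8% of all tested genes) and below 0 in 5 (50.2% of all), with a median of 0.34 against -0.00 (-0.00226) for all tested genes. Without AMPKβ1-/- library 3 with PF the median was 0.17 and 32 were above 0, and after removal of the trend in GC content it was 0.27 and 40 were above 0. The comparisons share libraries, PF in WT with both the WT vehicle and the WT PF libraries of the genotype comparisons and likewise in AMPKβ1-/-, so their values are set side by side and are not independent.

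The 4 genes with the smallest p were Ifi47 (0.78 ± 0.33, edgeR adjusted p = 0.324), Rsad2 (1.28 ± 0.54, 0.333), Gbp2 (1.05 ± 0.46, 0.336) and Irgm1 (0.56 ± 0.25, 0.336). Ifi47, an immunity-related GTPase, had 78.3, 96.4 and 118 CPM with vehicle and 147, 109 and 103 CPM with PF in WT. In AMPKβ1-/- BMDMs it had 86.2, 85.1 and 91.9 CPM with vehicle and 76.6, 74 and 36.5 CPM with PF. The WT groups overlapped and the AMPKβ1-/- groups did not.

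Irgm1, which governs the other GTPases of its family, had 106, 131 and 137 CPM with vehicle and 194, 134 and 145 CPM with PF in WT, and 116, 138 and 136 CPM and 134, 121 and 81.1 CPM in AMPKβ1-/-. Gbp2 had 24.7, 36.2 and 51.6 CPM and 81.1, 42.3 and 47.9 CPM in WT, and 30.3, 46 and 50.3 CPM and 35.2, 36.6 and 21.1 CPM in AMPKβ1-/-. In both genes the WT library 1 with PF was the highest of the 12 libraries and AMPKβ1-/- library 3 with PF was the lowest. Rsad2 had 56.7, 74 and 119 CPM with vehicle in WT and 86.4, 89.7 and 83.8 CPM in AMPKβ1-/-, and its PF values above also ran from the highest in WT library 1 to the lowest in AMPKβ1-/- library 3.

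The SE of this difference was 0.31 in the median of the members, against 0.18 over all tested genes. The 8 members that passed in none of the 5 comparisons were Ifit1, Gbp5, Mx1, Dtx3l, Parp9, Rtp4, Samhd1 and Oas2. Ifit1 ran from 20.4 CPM in WT library 1 with vehicle to 99.9 CPM in WT library 1 with PF, and Gbp5 had its extremes in the same libraries (2.67 and 15.2 CPM). Mx1, which traps viral ribonucleoproteins, ran from 17.5 CPM in AMPKβ1-/- library 3 with PF to 108 CPM in WT library 3 with vehicle, and Samhd1 (540.5 to 760 CPM) and Oas2 (68.9 to 160 CPM) had theirs there too. Rtp4 came closest to the threshold, in AMPKβ1-/- against WT with PF (-0.41 ± 0.16, edgeR adjusted p = 0.0515). Dtx3l and Parp9 overlap at one end on opposite strands of chromosome 16, so reads of the shared stretch could be told apart only if strand was used in counting, which is not given in the sources used here.

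Of the genes that carry the interferon signal, the receptor gene Ifnar1 was higher in AMPKβ1-/- with vehicle (0.25 ± 0.07, edgeR adjusted p = 0.00849) and with PF (0.34 ± 0.07, 0.00145). Of 5 tested receptor genes, 1 was higher and 0 lower with vehicle, and 2 were higher and 1, Il10rb, lower with PF (-0.25 ± 0.07). Removing the GC and length trend was a check of these lists added after the data were seen. With it, 1 receptor gene was higher and 0 lower with vehicle, and 3 and 0 with PF. Il10rb was then -0.11 with PF (edgeR adjusted p = 0.107). In such lists, here and in the next paragraph, the counts read against 29.7% of all tested genes higher and 30% lower with vehicle, and 24.1% and 22.9% with PF. The counts with the trend removed read against 25.7% higher and 11.5% lower with vehicle, and 27.1% and 13.2% with PF. Of 9 tested kinases and transcription factors, 2 were higher and 4 lower in AMPKβ1-/- both with vehicle and with PF, and 2 and 2 in each with the trend removed. Irf7, which amplifies type I interferon, was -0.81 ± 0.17 with vehicle (adjusted p = 0.00124) and -1.02 ± 0.17 with PF (4e-04), Irf9 was -0.47 ± 0.09 and -0.42 ± 0.09, and Jak2 was 1.24 ± 0.19 and 0.86 ± 0.18. Irf7 had 575, 573 and 710 CPM in WT with vehicle and 371, 335 and 355 CPM in AMPKβ1-/- with vehicle, in groups that did not overlap. With the trend removed, Irf7 was -0.28 with vehicle (adjusted p = 0.17) and -0.67 with PF (0.00522). Irf9 was then -0.28 and -0.23, and Jak2 0.53 and 0.35, all past the threshold.

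Of 14 tested inhibitors, 3 were higher and 7 lower with vehicle, and 4 and 5 with PF, and with the trend removed 2 and 3, and 3 and 2. Among them the DNA exonuclease gene Trex1 was -0.86 ± 0.15 with vehicle and -0.62 ± 0.15 with PF, and Socs1, which blocks JAK kinases and is itself induced by interferon, was -1.19 ± 0.36 with PF (edgeR adjusted p = 0.0137). With the trend removed, Trex1 was -0.31 with vehicle (adjusted p = 0.0298) and -0.22 with PF (0.101), and Socs1 -0.92 with PF (0.0282). Of 14 tested upstream sensing genes, 6 were higher and 7 lower in AMPKβ1-/- with vehicle, and 5 and 0 with PF, and with the trend removed 2 and 1, and 6 and 1. After PF in WT, 7 of them were lower and 0 higher, with Tlr9 -0.65 ± 0.11 (adjusted p = 0.00227) and Sting1 -0.58 ± 0.09 (0.00137), against the 8.95% of all tested genes that were lower, and 4 were lower with the trend removed, against 2.62% (Tlr9 -0.37, adjusted p = 0.0162). Sting1, the adaptor of cytosolic DNA sensing, had 78, 64.3 and 68.9 CPM with vehicle and 50.1, 45 and 46.1 CPM with PF in WT, and 41.4 to 45 CPM in all AMPKβ1-/- libraries. Its response differed between genotypes (-0.62 ± 0.12, adjusted p = 0.0463), also with that trend removed (-0.58, 0.00956).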

How the data were processed

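RNA of BMDMs was sequenced in 12 libraries as paired-end reads of 50 bases. The authors used Trim Galore on the reads and Salmon for transcript quantification, and DESeq2 is also named in their processing notes. Versions, genome build and counting by strand are not given in the sources used here. The deposited values are estimated counts per gene, as whole numbers without normalization. Groups were taken from the labels through the names of the count columns, and libraries are numbered 1 to 3 within a group. The 44 genes, their roles and the other lists were chosen with earlier results of these data known.

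The main test was that of edgeR 4.0.16 under R 4.3.3 (robust quasi-likelihood test, TMM, filterByExpr, 4 group means fitted to 12 libraries). P values were adjusted by Benjamini and Hochberg over 10822 tested genes, and adjusted p below 0.05 passed. SE were derived from the F statistic and are approximate. No replicate libraries were identical (their counts differed by 2.19 to 18.1 times the counting variance). GC content and length came from GENCODE M21 (GRCm38), with 57 of 12960 genes unmatched, and their trend was fitted with natural splines of 5 degrees of freedom. Genes with values in every library were, in each comparison, up to 6 per direction with the largest change among those that passed without overlap, or the 4 with the smallest p where none passed, and the 5 highest and 3 lowest per length. Alternatives were other scalings, filters, DESeq2 1.42.0, limma-voom 3.58.1, the libraries of a comparison alone, the GC and length trend, the study's fold threshold and each library left out. The scripts were tested on simulated counts.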

Additional observations from a re-analysis of the deposited data

How the results depend on the processing

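The count columns carry a number from 1 to 3 in each group that is in no label, and nothing says that it pairs libraries. Same-numbered libraries of different groups correlated between -0.184 and 0.317 in their deviations from the group means, with 6 of 18 pairs above 0.1, and 1 library correlated best with its own number in every other group. A replicate block on these numbers, added after the data were seen, gave 9 higher and 13 lower members with vehicle, 4 and 21 with PF, and 0 in the other comparisons. In AMPKβ1-/- against WT with vehicle, library size alone gave 5 lower members, removing the GC and length trend gave 2 higher and 4 lower, and a log2 fold change past 0.8 left 1 lower. With PF, removing that trend gave 2 higher and 16 lower, and a log2 fold change past 0.8 left 13 lower. DESeq2 called 1 member higher after PF in WT. Leaving out 1 library at a time gave 7 to 13 higher and 5 to 16 lower members with vehicle, and 4 to 6 higher and 15 to 27 lower with PF. The lower count with vehicle was 5 without WT library 3, 6 without AMPKβ1-/- library 2 and 7 without AMPKβ1-/- library 3, and the higher count was 7 without WT library 1. Leaving out 1 library gave 0 to 1 lower members after PF in WT. For PF in AMPKβ1-/- and for the difference in response it gave 0 in either direction. The share of all tested genes that passed also changed with the fit and is not given beside these counts. The counts therefore do not show whether the members changed more than other genes. Of the genes described with values in every library, Ifi203 reversed with the GC and length trend removed, to -0.20 with vehicle and -0.29 with PF. The causes were not tested. Of the results for single named genes under the alternatives, 666 kept direction and side of the threshold, and 38 kept direction but lost the call. A further 2 gained a call and 2 reversed. The 666 include results that had no call to lose, such as those of the genes named for PF against vehicle. They therefore do not measure how stable the calls were. With 3 libraries per group and an SE of 0.22 in the median member, log2 differences near that SE were not detectable.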

Other observations

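Among 84 other tested interferon-stimulated genes, Cd274, which encodes PD-L1, was higher after PF in WT BMDMs. It had 11.4, 11.7 and 18.8 CPM with vehicle and 33.4, 31.3 and 33.2 CPM with PF in WT, and 13.9 to 17.4 CPM in all AMPKβ1-/- libraries. The log2 fold change in WT was 1.22 ± 0.15 (edgeR adjusted p = 0.000588), and the response differed between genotypes (1.10 ± 0.22, adjusted p = 0.044). With the trend in GC content removed these were 0.96 (0.00166) and 0.91 (0.0631). Ly6e and Shisa5 were the 2 genes of this list that were lower after PF in WT (both -0.34 ± 0.09), and with that trend removed Shisa5 passed (-0.21, 0.0283) and Ly6e did not (-0.19, 0.108). In AMPKβ1-/- against WT, 26 were higher and 26 lower with vehicle, and 14 and 31 with PF, against 29.7% and 30%, and 24.1% and 22.9%, of all tested genes. With that trend removed the counts were 9 and 12 with vehicle, against 25.7% and 11.5% of all tested genes. With PF they were then 7 and 22, against 27.1% and 13.2%. Slfn9 (2.20 ± 0.27) and Ddx60 (1.76 ± 0.25) were the largest rises with PF (1.71 and 0.96 with that trend removed). Slfn1 (-1.27 ± 0.27) and the chemokine Ccl5 (-1.24 ± 0.16) were lower (-1.44 and -0.86 with that trend removed).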
